A study of Mus musculus with 6 samples.

Results

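The SLC25 family, the carriers of the inner mitochondrial membrane, was examined in hypoxic mouse lungs. Members were taken by name, as every gene of the array table whose symbol starts with Slc25a and a number, pseudogenes left out. This gave 46 of 25428 probe sets, 1 per gene and all protein-coding. Slc25a5 is not analysed here. RNA of 1 lung lobe per mouse was hybridised to its own GeneChip Mouse Gene 2.0 ST array. 3 lungs came from Nfat5(SMC)-/- mice and 3 from Nfat5fl/fl mice, numbered 1, 2 and 4 in each group, all after 7 days at 10% oxygen. By the study's methods both groups were males with floxed Nfat5 alleles from crosses with SM-MHC-CreERT2, a Cre driven by the promoter of smooth muscle myosin heavy chain that male mice carry. At 10 to 12 weeks of age the Nfat5(SMC)-/- mice were given 1 mg tamoxifen per day for 5 days and the Nfat5fl/fl mice the solvent miglyol, followed by 2 to 3 weeks of recovery, so that effects of tamoxifen and of the deletion cannot be told apart. By this design, cells other than smooth muscle cells are meant to keep Nfat5. Arrays of a whole lobe do not show in which cells Nfat5 was lost. The sources used here do not name the strain. The comparison asks how the loss of the transcription factor NFAT5 from smooth muscle cells alters gene expression in the hypoxic lung.

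The inner mitochondrial membrane lets few charged metabolites through. SLC25 proteins are its exchangers: they bind a substrate on one face, close around it and release it on the other face, usually against a counter-substrate. In this way ADP and phosphate reach the ATP synthase, reducing equivalents of the cytosol reach the respiratory chain, citrate leaves for fatty acid and sterol synthesis, and iron, nucleotides, amino acids and cofactors enter the matrix. The proteins are encoded in the nucleus and imported after translation. Their transcripts are found in most tissues, but several members are concentrated in one tissue, such as Slc25a4 in heart and skeletal muscle, Slc25a37 and Slc25a38 in erythroid cells and Slc25a31 in testis.

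Nfat5 itself was measured at 8.23, 7.72 and 7.89 on the log2 scale in Nfat5(SMC)-/- mice 1, 2 and 4, against 9.18, 8.62 and 9.21 in Nfat5fl/fl mice. All 3 Nfat5(SMC)-/- lungs lay below all 3 Nfat5fl/fl lungs, but the difference, -1.06 (SE 0.20), did not pass the test (adjusted p 0.0707 in limma). Levels are log2 values of quantile-normalised arrays, so every difference is read against the rest of the array. In a whole lobe, fewer cells of a type and less RNA per cell cannot be told apart. The lung of Nfat5(SMC)-/- mouse 1 stood apart. It lay at 55.8 on the first principal component, against 3.57 and 3.12 for Nfat5(SMC)-/- mice 2 and 4 and -21.6 to -20.1 for the Nfat5fl/fl lungs. Markers of fat cells differed in level between the groups. The mean level of 10 adipocyte markers was 7.79, 8.37 and 8.71 in Nfat5(SMC)-/- lungs, against 6.52, 6.56 and 5.97 in Nfat5fl/fl lungs. All 10 were higher on average, and Plin1, Cidec and Cfd passed the test. Of 6 lung endothelium markers 0 passed the test. 4 were lower without overlap, which 15.0% of all probe sets were: Tek (-0.43, adjusted p 0.0548 in limma), Cdh5 (-0.31), Kdr (-0.27) and Pecam1 (-0.22). The other 2, Cldn5 (0.17) and Vwf (0.07), were higher on average, and their groups overlapped. The mean level of all 6 was 10.70, 10.81 and 10.73 in Nfat5(SMC)-/- lungs, against 10.83, 10.99 and 10.91 in Nfat5fl/fl lungs, and its part in the results was not tested. The mean of 10 brown adipocyte markers was 5.71 in Nfat5fl/fl mouse 2, against 4.89 and 4.88 in Nfat5fl/fl mice 1 and 4. Ucp1 measured 8.42 in that lung, against 4.47 and 4.32. In the Nfat5(SMC)-/- lungs Ucp1 was also high, at 8.97, 9.41 and 8.32. Zic1 (3.92, against 4.15 and 4.17) and Dio2 (4.48, against 4.72 and 4.56) were lower in Nfat5fl/fl mouse 2 than in Nfat5fl/fl mice 1 and 4. Defining markers of the labelled tissue were present, with a mean level of 8 lung epithelium markers between 11.53 and 11.79 in all 6 lungs.

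Of the 46 members 2 (4.35%), Slc25a1 and Slc25a10, passed the test over all genes, and both were higher in Nfat5(SMC)-/- lungs. 0 members passed as lower in limma. Among all probe sets, 0.260% passed as higher and 0.558% as lower. Slc25a1 carries citrate out of the matrix, and Slc25a10 exchanges malate or succinate for phosphate. The family as a whole did not shift to one side. 25 members had a positive and 21 a negative difference, with a median of 0.03 on the log2 scale, against -0.00 over all 25428 probe sets and -0.01 over 332 other numbered Slc transporters. 6 members were higher at an unadjusted p under 0.05 in limma, which 8.19% of all probe sets were, and 5 were lower, which 11.1% of all probe sets were. In 7 members all 3 Nfat5(SMC)-/- lungs lay above all 3 Nfat5fl/fl lungs, against 11.8% of all probe sets, and in 8 members they lay below, against 15.0% of all probe sets. As shares of the 46 members these 4 counts are 13%, 10.9%, 15.2% and 17.4%. 32 members had a mean above the median of all values (4.96), and none of the other 14 had an unadjusted p under 0.05.

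**Figure D1:**
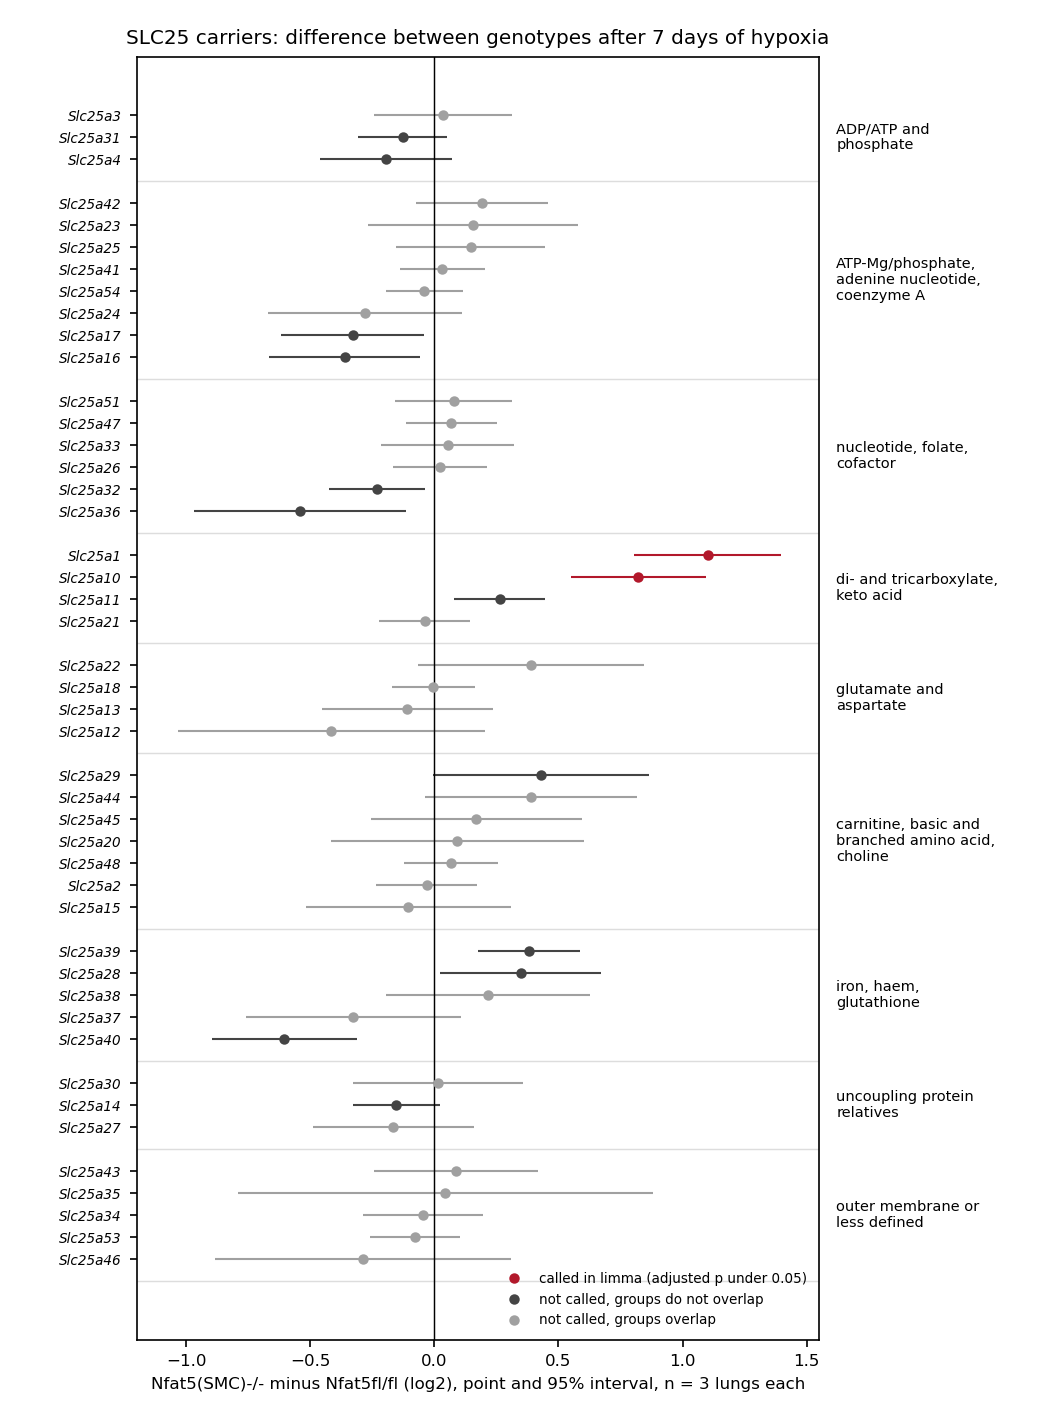
Difference between Nfat5(SMC)-/- and Nfat5fl/fl lungs on the log2 scale (x axis) for 45 of the 46 SLC25 genes (y axis), grouped by substrate, as points with 95% intervals from limma (3 lungs per group). The 2 red points, Slc25a1 at 1.10 and Slc25a10 at 0.82, passed the test, dark grey points are genes whose groups did not overlap, and light grey points are genes whose groups overlapped.

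The promoters of 4 members are shown because the first 2 belong to the genes that rose and the other 2 to a related pair, the glutathione carriers, whose differences had opposite signs. Each is the 250 bases before the gene's start in RefSeq (GRCm38.p6), 5′ to 3′ on the strand of the gene: chr16:17928220-17928469 on the minus strand for Slc25a1, chr11:120491587-120491836 on the plus strand for Slc25a10, chr11:102407518-102407767 on the minus strand for Slc25a39 and chr5:8422588-8422837 on the plus strand for Slc25a40. Capitals mark matches, on either strand, to 8 motifs that were searched: the CCAAT box, the GC box (GGGCGG), the E-box (CACGTG), the cAMP response element half-site (TGACGT), the nuclear receptor half-site (AGGTCA), the NRF1 half-site (CATGCGC), the core of the NFAT5 element (TGGAAA) and the sterol regulatory element (TCACNCCAC).
Slc25a1: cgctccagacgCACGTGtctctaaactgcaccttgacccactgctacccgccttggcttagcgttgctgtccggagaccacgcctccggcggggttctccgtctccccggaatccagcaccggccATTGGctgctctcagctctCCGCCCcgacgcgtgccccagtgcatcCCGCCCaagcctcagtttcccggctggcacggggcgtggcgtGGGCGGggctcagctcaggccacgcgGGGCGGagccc
Slc25a10: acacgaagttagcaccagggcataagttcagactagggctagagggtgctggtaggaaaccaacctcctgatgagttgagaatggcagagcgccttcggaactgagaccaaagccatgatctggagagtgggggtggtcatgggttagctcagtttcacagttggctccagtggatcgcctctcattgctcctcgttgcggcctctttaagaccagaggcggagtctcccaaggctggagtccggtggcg
Slc25a39: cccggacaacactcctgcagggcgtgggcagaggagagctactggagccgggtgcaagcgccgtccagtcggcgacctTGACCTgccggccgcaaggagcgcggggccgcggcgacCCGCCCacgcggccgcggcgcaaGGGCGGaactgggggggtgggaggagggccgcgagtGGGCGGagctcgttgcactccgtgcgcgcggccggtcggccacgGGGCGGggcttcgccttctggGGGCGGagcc
Slc25a40: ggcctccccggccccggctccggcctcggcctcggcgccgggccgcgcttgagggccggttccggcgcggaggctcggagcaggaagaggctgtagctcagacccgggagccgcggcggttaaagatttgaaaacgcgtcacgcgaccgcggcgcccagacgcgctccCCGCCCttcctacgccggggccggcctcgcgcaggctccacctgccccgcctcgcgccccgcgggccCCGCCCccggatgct

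The Slc25a1 promoter, with 70.0% G and C, held a CCAAT box that starts 125 bases before the gene's start, GC boxes at 106, 79, 37 and 11 bases and an E-box at 239 bases. The Slc25a10 promoter, with 56.0% G and C, held none of the 8 motifs in this window. The Slc25a39 promoter (77.2% G and C) held 5 GC boxes and 1 nuclear receptor half-site at 172 bases, and the Slc25a40 promoter (78.0% G and C) held GC boxes at 82 and 15 bases. No printed match overlapped another. 35 of the 46 members had a promoter entry. A GC box lay in the window of 24 of them (68.6%), against 35.4% of 27025 genes with an entry, and a CCAAT box in 18 (51.4%), against 37.5% of genes. An E-box lay in 7 (20.0%), against 6.86% of genes. The NFAT5 core lay in 6 (17.1%), against 20.9% of genes, and the nuclear receptor half-site in 4 (11.4%), against 15.8%. The cAMP half-site was found in 4 members (11.4%), against 7.29% of genes, the NRF1 half-site in 2 (5.71%), against 3.68%, and the sterol element in 1 (2.86%), against 1.22%. All 46 members are protein-coding, but the 27025 genes were not filtered for protein-coding genes, so the 2 sets may differ in more than family. These shares describe letters in the windows and are not binding sites.

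Carriers of di- and tricarboxylates held both called members. 3 of the 4 measured were higher, with a median difference of 0.54. Slc25a1 (Entrez gene 13358) measured 9.38, 9.80 and 9.72 in Nfat5(SMC)-/- mice 1, 2 and 4, against 8.50, 8.62 and 8.48 in Nfat5fl/fl mice. The lowest Nfat5(SMC)-/- lung, that of mouse 1, lay above the highest Nfat5fl/fl lung. Mean levels were 9.63 ± 0.22 in Nfat5(SMC)-/- and 8.53 ± 0.08 in Nfat5fl/fl lungs (SD, n = 3 each), a rise of 1.10 (SE 0.12), or 2.15-fold with a 95% interval of 1.75 to 2.63, and the adjusted p in limma was 0.0416. Slc25a10 (Entrez gene 27376) measured 8.98, 8.93 and 8.69 in Nfat5(SMC)-/- lungs, against 7.89, 8.15 and 8.10 in Nfat5fl/fl lungs. It rose by 0.82 (SE 0.11), or 1.77-fold with an interval of 1.47 to 2.13, with an adjusted p of 0.0457 in limma, and its groups did not overlap. Both calls lie close to the threshold of 0.05. Without Nfat5(SMC)-/- mouse 1 they held, with adjusted p of 0.0181 for Slc25a1 and 0.0394 for Slc25a10. With any other single lung left out neither passed, with adjusted p between 0.0834 and 0.228 for each.

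Slc25a11, the oxoglutarate carrier of the malate-aspartate shuttle, measured 9.12, 9.04 and 8.94 in Nfat5(SMC)-/- lungs, against 8.71, 8.82 and 8.78 in Nfat5fl/fl lungs. Its groups did not overlap and its difference was 0.26 (SE 0.07), with an adjusted p of 0.136 in limma. Slc25a21, the carrier of oxoadipate, had a low level in all lungs and a difference of -0.04. Slc25a1 and Slc25a10 are short genes, with genomic spans of 3.01 and 9.32 kb.

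The enzymes that use citrate and malate in the cytosol were set beside these carriers. All 6 listed genes were higher on average, with a median difference of 0.93 on the log2 scale, and 1 passed the test. Aacs, which makes acetoacetyl-CoA in the cytosol, measured 7.20, 7.02 and 7.01 in Nfat5(SMC)-/- lungs, against 5.93, 5.89 and 5.94 in Nfat5fl/fl lungs. It rose by 1.16 (SE 0.08), with an adjusted p of 0.0416 in limma. Acly, which splits exported citrate, had a difference of 0.90 (adjusted p 0.0601 in limma) and Me1, the cytosolic malic enzyme, of 0.96 (adjusted p 0.0580 in limma). Fasn, the fatty acid synthase, had a difference of 1.11 (adjusted p 0.0702 in limma). In Aacs, Acly, Me1 and Fasn all 3 Nfat5(SMC)-/- lungs lay above all 3 Nfat5fl/fl lungs. These enzymes and Slc25a10 are known to be strongly expressed in fat cells. With the mean of the adipocyte markers as a covariate, the difference of Slc25a1 was 0.49 (adjusted p 0.403 in limma) and that of Slc25a10 was 1.27 (adjusted p 0.249 in limma). That mean does not overlap between the groups, so genotype and adipocyte marker level cannot be told apart in these 6 lungs.

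**Figure D2:**
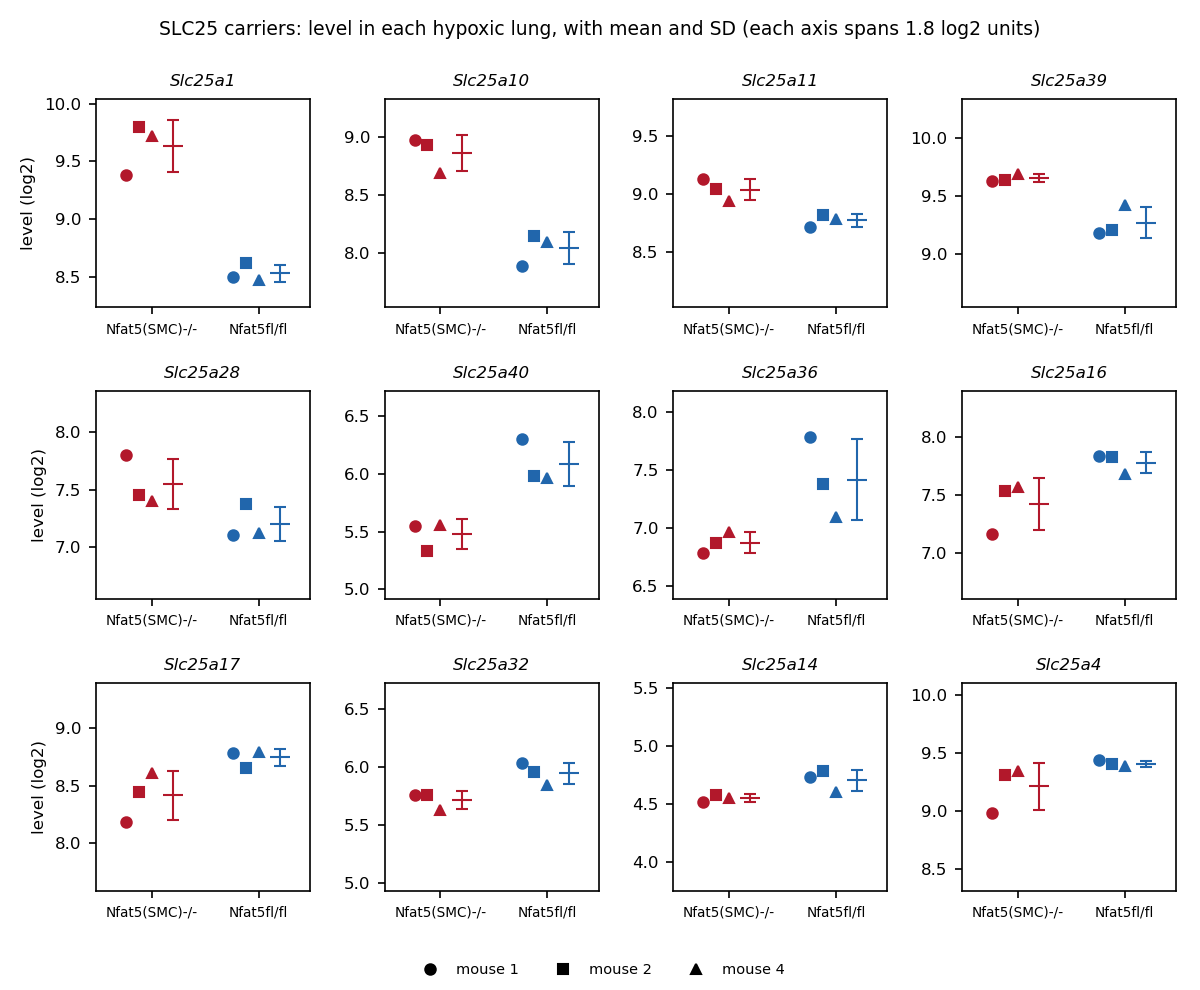
Level of 12 SLC25 genes (log2, y axes of equal length) in each Nfat5(SMC)-/- lung (red, left) and Nfat5fl/fl lung (blue, right), with mouse 1 as circles, mouse 2 as squares and mouse 4 as triangles, and the mean and SD of 3 lungs beside the points. In each of the 12 the groups did not overlap, and the gap was largest for Slc25a1, with 9.38 to 9.80 in Nfat5(SMC)-/- and 8.48 to 8.62 in Nfat5fl/fl lungs.

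The carriers that feed the ATP synthase, which bring in ADP and phosphate and export ATP, held no called member. 3 of 4 listed genes were measured, 1 higher and 2 lower, with a median of -0.13. Slc25a3, the phosphate carrier, measured 9.22, 9.63 and 9.54 in Nfat5(SMC)-/- lungs, against 9.41, 9.43 and 9.46 in Nfat5fl/fl lungs. The Nfat5(SMC)-/- lungs lay on both sides of the Nfat5fl/fl lungs, and the difference was 0.03 with a 95% interval of -0.24 to 0.31. Slc25a4, the ADP/ATP carrier of heart and skeletal muscle, measured 8.98, 9.31 and 9.35 in Nfat5(SMC)-/- lungs, against 9.44, 9.40 and 9.39 in Nfat5fl/fl lungs. All 3 Nfat5(SMC)-/- lungs lay lower, that of mouse 1 the furthest, and the difference of -0.20 had an interval of -0.46 to 0.07 (-0.080 without Nfat5(SMC)-/- mouse 1). Mean levels of 8 cardiac muscle markers were 6.92, 7.48 and 7.62 in Nfat5(SMC)-/- lungs, against 7.19, 7.32 and 7.68 in Nfat5fl/fl lungs. Those of 8 skeletal muscle markers were uneven, at 7.55, 5.05 and 6.67 in Nfat5(SMC)-/- lungs, against 7.26, 5.35 and 6.34 in Nfat5fl/fl lungs. The part of either muscle in the level of Slc25a4 was not tested. Slc25a31, the ADP/ATP carrier of testis, was low in all 6 lungs, between 4.09 and 4.29. Of 15 listed subunits of the ATP synthase itself 10 were measured, 7 higher and 3 lower with a median of 0.21, and Atp5e passed the test with a rise of 0.76 (adjusted p 0.0416 in limma).

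The 8 carriers of ATP-Mg, adenine nucleotides and coenzyme A divided evenly, 4 higher and 4 lower, none called, with a median of -0.00. Slc25a17, the carrier of peroxisomes for coenzyme A and related cofactors, measured 8.19, 8.45 and 8.61 in Nfat5(SMC)-/- lungs, against 8.78, 8.65 and 8.79 in Nfat5fl/fl lungs. Slc25a16, which has been linked to coenzyme A transport, measured 7.16, 7.53 and 7.57 in Nfat5(SMC)-/- lungs, against 7.84, 7.83 and 7.68 in Nfat5fl/fl lungs. Both had all Nfat5(SMC)-/- lungs below all Nfat5fl/fl lungs, with differences of -0.33 (adjusted p 0.209 in limma) for Slc25a17 and -0.36 (adjusted p 0.196 in limma) for Slc25a16. Slc25a42, the coenzyme A carrier, had a difference of 0.19 with an interval of -0.07 to 0.46. Of the calcium-regulated carriers of ATP-Mg and phosphate, Slc25a23 measured 8.74, 9.32 and 9.34 in Nfat5(SMC)-/- lungs, against 8.97, 9.07 and 8.88 in Nfat5fl/fl lungs. Slc25a24, which has the same substrates, measured 8.52, 8.42 and 8.48 in Nfat5(SMC)-/- lungs, against 9.09, 8.44 and 8.73 in Nfat5fl/fl lungs. Slc25a25 measured 5.66, 5.91 and 5.82 in Nfat5(SMC)-/- lungs, against 5.88, 5.56 and 5.51 in Nfat5fl/fl lungs. The groups of these 3 overlapped, and their differences were 0.16 for Slc25a23, -0.28 for Slc25a24 and 0.15 for Slc25a25. With 1 lung left out these ranged from 0.051 to 0.35 for Slc25a23, from -0.43 to -0.11 for Slc25a24 and from 0.078 to 0.26 for Slc25a25. Slc25a41 (0.03) and Slc25a54 (-0.04) were at low levels in all lungs.

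Of 7 carriers of nucleotides, folate and cofactors 5 were higher and 2 lower, none called, with a median of 0.05. Slc25a36, a carrier of pyrimidine nucleotides, measured 6.78, 6.87 and 6.96 in Nfat5(SMC)-/- lungs, against 7.78, 7.37 and 7.09 in Nfat5fl/fl lungs. The Nfat5(SMC)-/- lungs lay close together below the spread of the Nfat5fl/fl lungs, and the difference was -0.54 (SE 0.18) with an adjusted p of 0.172 in limma. Slc25a33, its relative with like substrates, lay around the median of all values, with 4.71, 5.06 and 5.0 in Nfat5(SMC)-/- lungs, against 4.95, 4.89 and 4.78 in Nfat5fl/fl lungs. Slc25a32, the folate carrier, measured 5.76, 5.76 and 5.63 in Nfat5(SMC)-/- lungs, against 6.04, 5.96 and 5.85 in Nfat5fl/fl lungs, without overlap, and its difference was -0.23 (SE 0.08; adjusted p 0.192 in limma). The carriers of NAD+, Slc25a51 (0.08), and of S-adenosylmethionine, Slc25a26 (0.02), differed by less than 0.1, as did Slc25a47 (0.07).

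Of the 4 glutamate and aspartate carriers 1 was higher and 3 lower, none called, with a median of -0.06. Slc25a12, an aspartate-glutamate carrier of the malate-aspartate shuttle, measured 7.72, 8.36 and 8.78 in Nfat5(SMC)-/- lungs, against 8.74, 8.63 and 8.74 in Nfat5fl/fl lungs. The lungs of Nfat5(SMC)-/- mice 1 and 2 lay below all Nfat5fl/fl lungs and that of mouse 4 above them, and the difference of -0.42 had an interval of -1.03 to 0.20. It was -0.13 without Nfat5(SMC)-/- mouse 1 and -0.66 without Nfat5(SMC)-/- mouse 4. Slc25a13, the second carrier of this kind, measured 4.83, 5.21 and 5.19 in Nfat5(SMC)-/- lungs, against 5.30, 4.98 and 5.28 in Nfat5fl/fl lungs, with overlapping groups. Slc25a22, a glutamate carrier, measured 5.36, 5.86 and 6.03 in Nfat5(SMC)-/- lungs, against 5.49, 5.43 and 5.17 in Nfat5fl/fl lungs. Mice 2 and 4 were above all Nfat5fl/fl lungs and mouse 1 was among them, and the difference of 0.39 had an adjusted p of 0.326 in limma. Slc25a18, the other glutamate carrier, was low and level, at 4.74, 4.72 and 4.87 in Nfat5(SMC)-/- lungs, against 4.75, 4.80 and 4.79 in Nfat5fl/fl lungs. Among the 4 listed enzymes of the malate-aspartate shuttle 3 were higher and 1 lower, none called, and Mdh2, the mitochondrial malate dehydrogenase, had a difference of 0.28 (adjusted p 0.17 in limma).

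Of 7 carriers of carnitine, basic and branched-chain amino acids and choline 5 were higher and 2 lower, none called, with a median of 0.09. Slc25a29, a carrier of basic amino acids, had no overlap and a difference of 0.43 (adjusted p 0.264 in limma), and the lung of Nfat5(SMC)-/- mouse 1 was the highest, at 5.47 against 4.80 and 4.89 in Nfat5(SMC)-/- mice 2 and 4 and 4.58 to 4.67 in Nfat5fl/fl lungs. Slc25a44, which imports branched-chain amino acids into the mitochondria of brown fat, was lowest in that lung among the Nfat5(SMC)-/- lungs. It measured 6.41, 6.97 and 7.05 in Nfat5(SMC)-/- mice 1, 2 and 4, against 6.5, 6.42 and 6.34 in Nfat5fl/fl lungs, with a difference of 0.39 and an adjusted p of 0.296 in limma. Without Nfat5(SMC)-/- mouse 1 its difference was 0.59, with an adjusted p of 0.0339 in limma. Among 8 enzymes of branched-chain amino acid breakdown 5 were higher and 3 lower, none called, and the largest difference was that of Bckdha, a subunit of the branched-chain keto acid dehydrogenase, at 0.93 (adjusted p 0.0976 in limma). The mean of 10 brown adipocyte markers was 5.85, 6.21 and 5.92 in Nfat5(SMC)-/- lungs, against 4.89, 5.71 and 4.88 in Nfat5fl/fl lungs, and its part in the level of Slc25a44 was not tested. Slc25a20, which exchanges carnitine for acylcarnitine in fatty acid oxidation, differed by 0.09 with an interval of -0.42 to 0.60.

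The ornithine carriers Slc25a15 and Slc25a2 overlapped between the groups. Slc25a15 measured 4.90, 5.55 and 5.24 in Nfat5(SMC)-/- lungs, against 5.43, 5.21 and 5.35 in Nfat5fl/fl lungs. Slc25a2 was low, at 4.33, 4.42 and 4.23 in Nfat5(SMC)-/- lungs, against 4.45, 4.25 and 4.37 in Nfat5fl/fl lungs. These 2 genes differed by -0.10 for Slc25a15 and -0.03 for Slc25a2. Slc25a45, a less studied member, measured 6.28, 6.79 and 6.93 in Nfat5(SMC)-/- lungs, against 6.6, 6.5 and 6.38 in Nfat5fl/fl lungs. Slc25a48, a choline carrier, measured 4.64, 4.55 and 4.42 in Nfat5(SMC)-/- lungs, against 4.42, 4.49 and 4.5 in Nfat5fl/fl lungs. Their differences of 0.17 for Slc25a45 and 0.07 for Slc25a48 lay within the spread of the lungs.

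The carriers of iron, glycine for haem and glutathione had differences of both signs. 3 of 5 were higher and 2 lower, none called, with a median of 0.22. Leaving out Nfat5(SMC)-/- mouse 1 gave a median of 0.049, leaving out Nfat5(SMC)-/- mouse 4 gave 0.36, and leaving out both Nfat5(SMC)-/- mouse 1 and Nfat5fl/fl mouse 2 gave -0.020. Slc25a39, a carrier of glutathione, measured 9.63, 9.63 and 9.69 in Nfat5(SMC)-/- lungs, against 9.18, 9.21 and 9.42 in Nfat5fl/fl lungs. The Nfat5(SMC)-/- lungs lay within 0.06 of each other and above all Nfat5fl/fl lungs, and the difference was 0.38 (SE 0.08; adjusted p 0.0869 in limma). Slc25a40, its paralogue, measured 5.55, 5.33 and 5.55 in Nfat5(SMC)-/- lungs, against 6.30, 5.98 and 5.96 in Nfat5fl/fl lungs. This was the lowest difference of the family, -0.60 (SE 0.12), without overlap and with an adjusted p of 0.0730 in limma. Slc25a28, a mitoferrin that carries iron in many tissues, measured 7.80, 7.45 and 7.40 in Nfat5(SMC)-/- lungs, against 7.11, 7.37 and 7.13 in Nfat5fl/fl lungs, a difference of 0.35 (adjusted p 0.232 in limma). Slc25a37, the mitoferrin of erythroid cells, measured 7.53, 7.66 and 7.99 in Nfat5(SMC)-/- lungs, against 7.83, 7.96 and 8.37 in Nfat5fl/fl lungs. Its groups overlapped, and the difference of -0.33 had an interval of -0.76 to 0.11. Slc25a38, the erythroid glycine carrier, differed by 0.22 with an interval of -0.19 to 0.63. 4 of 6 erythroid markers were measured, all 4 higher and 0 called. Their mean was 7.70, 6.92 and 7.05 in Nfat5(SMC)-/- lungs, against 6.32, 7.11 and 7.02 in Nfat5fl/fl lungs, which overlap. Among 8 enzymes of haem synthesis 7 were higher and 1 lower, none called. Ppox, protoporphyrinogen oxidase, was the one below 0, at -0.52 (adjusted p 0.169 in limma).

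The 3 relatives of the uncoupling proteins within the family were at low to moderate levels. Slc25a14 measured 4.51, 4.58 and 4.55 in Nfat5(SMC)-/- lungs, against 4.73, 4.78 and 4.6 in Nfat5fl/fl lungs, without overlap and with a difference of -0.15 (adjusted p 0.313 in limma). Slc25a30 measured 5.51, 5.47 and 5.91 in Nfat5(SMC)-/- lungs, against 5.76, 5.59 and 5.48 in Nfat5fl/fl lungs, a difference of 0.02. Slc25a27 had a difference of -0.16. Proteins of the same fold that carry other names were set beside them. Ucp1, the proton carrier of brown fat, measured 8.97, 9.41 and 8.32 in Nfat5(SMC)-/- lungs, against 4.47, 8.42 and 4.32 in Nfat5fl/fl lungs. The lung of Nfat5fl/fl mouse 2 lay among the Nfat5(SMC)-/- lungs, and the difference was 3.17 (SE 1.11; adjusted p 0.197 in limma). Ucp3 measured 4.89, 5.14 and 4.82 in Nfat5(SMC)-/- lungs, against 4.47, 4.34 and 4.42 in Nfat5fl/fl lungs, without overlap (0.54, adjusted p 0.0672 in limma). The difference of Ucp2 was 0.23 (adjusted p 0.450 in limma) and that of Mtch1 was 0.34 (adjusted p 0.291 in limma). Mpc1 and Mpc2, which together form the pyruvate carrier outside this family, differed by -0.13 and 0.47, and neither passed the test.

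The remaining 5 members, which lie in the outer membrane or are less defined, were 2 higher and 3 lower, none called, with a median of -0.05. Slc25a46, which acts in the shape and fusion of mitochondria, had the largest difference among them, -0.29 with an interval of -0.88 to 0.31 (-0.67 and called, at an adjusted p of 0.0411 in limma, without Nfat5(SMC)-/- mouse 1 and Nfat5fl/fl mouse 2), and the lung of Nfat5(SMC)-/- mouse 1 was at 9.0, against 8.29 and 8.12 in Nfat5(SMC)-/- mice 2 and 4. Slc25a35 had the widest range over the Nfat5(SMC)-/- lungs, with 6.89 in mouse 1 and 8.23 and 7.95 in mice 2 and 4, against 7.44, 7.69 and 7.81 in Nfat5fl/fl lungs. Slc25a34 (-0.05), Slc25a43 (0.09) and Slc25a53 (-0.08) differed by less than 0.1.

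Most members had Nfat5(SMC)-/- mouse 1 at one end of its group, as had the array as a whole. In 39 of the 46 members (84.8%) that lung was the highest or the lowest of the 3 Nfat5(SMC)-/- lungs, against 84% of all probe sets. The range over 3 lungs had a median of 0.36 on the log2 scale in Nfat5(SMC)-/- lungs, against 0.19 in Nfat5fl/fl lungs, and it was wider in the Nfat5(SMC)-/- lungs in 30 members (65.2%), against 68.3% of all probe sets. Without that lung, 11 of 46 members had an unadjusted p under 0.05 and a positive difference, against 10.4% of all probe sets. At the same level 6 members had a negative difference, for which no share of all probe sets was computed. Slc25a1, Slc25a10 and Slc25a44 then passed the test as higher, as did 353 of all probe sets (1.39%, against 0.260% with all lungs). As lower, 0 members and 627 of all probe sets passed.

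**Figure D3:**
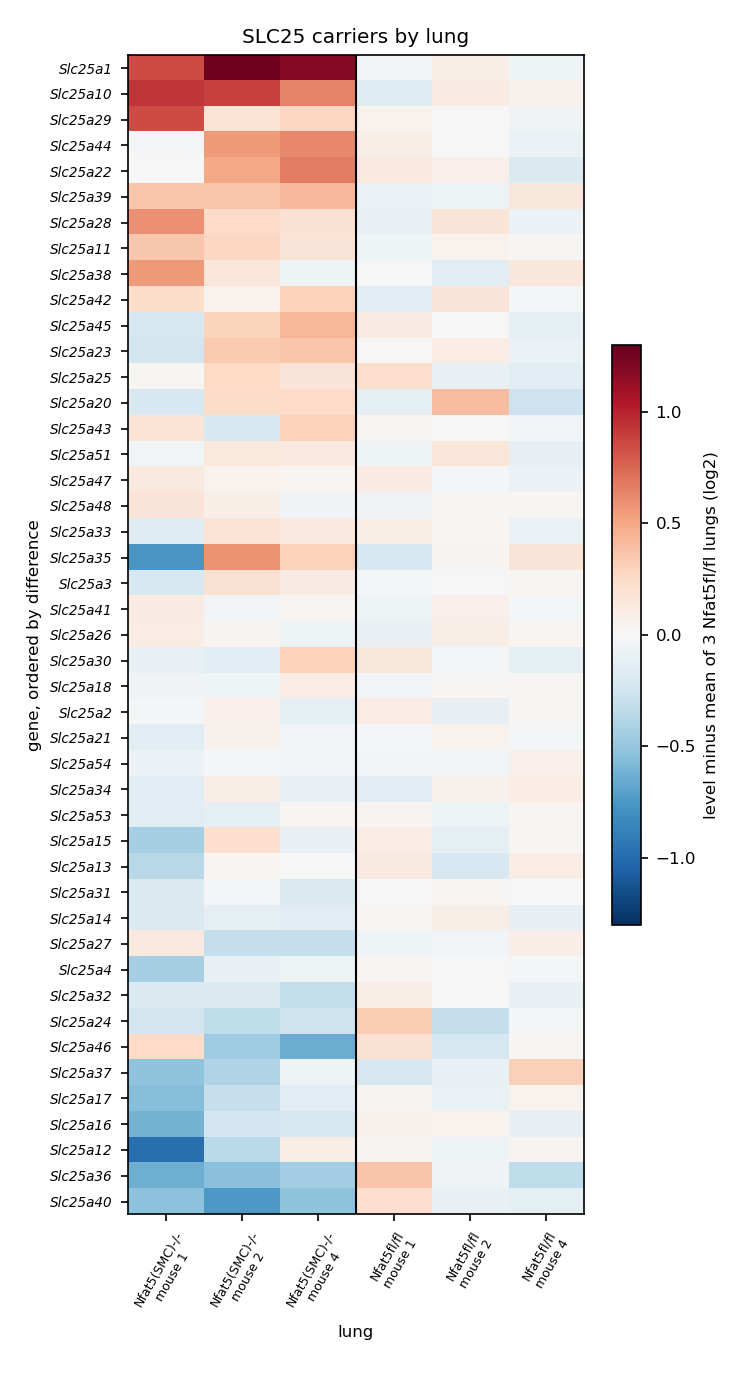
Level of 45 of the 46 SLC25 genes (y axis, ordered by difference) in each lung (x axis, Nfat5(SMC)-/- lungs left), as the deviation from the mean of the 3 Nfat5fl/fl lungs on the log2 scale (red higher, blue lower). The top line, Slc25a1, is red in all 3 Nfat5(SMC)-/- lungs and the bottom line, Slc25a40, blue in all 3, while in the middle of the plot the lung of Nfat5(SMC)-/- mouse 1 has the opposite colour in several genes to those of mice 2 and 4.

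Carriers with the same or like substrates were then set against each other within each lung, which shows whether a pair differed unequally between the groups but not which level is higher. 11 of 12 listed pairs were measured. The smallest two-sided p that an exact permutation test can give with these lungs is 0.1, and after Benjamini-Hochberg adjustment over the 11 pairs the smallest value was 0.471. In 2 pairs the groups did not overlap. The log2 difference of Slc25a39 over Slc25a40 was 4.08, 4.30 and 4.13 in Nfat5(SMC)-/- lungs, against 2.88, 3.22 and 3.45 in Nfat5fl/fl lungs, 0.99 more in the Nfat5(SMC)-/- lungs (exact permutation p = 0.1). The log2 difference of Slc25a33 over Slc25a36 was -2.07, -1.81 and -1.96 in Nfat5(SMC)-/- lungs, against -2.83, -2.49 and -2.30 in Nfat5fl/fl lungs, 0.60 more (exact permutation p = 0.1). For the mitoferrins, Slc25a28 over Slc25a37, the shift was 0.67 (exact permutation p = 0.2), and the lung of Nfat5(SMC)-/- mouse 4 lay just below the value of Nfat5fl/fl mouse 2. For the aspartate-glutamate carriers, Slc25a12 over Slc25a13, it was -0.31 (exact permutation p = 0.3). For Slc25a1 over Slc25a10 it was 0.28 (exact permutation p = 0.3). The other 6 shifts lay between -0.17 and 0.43 (exact permutation p of 0.2 to 1).

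**Figure D4:**
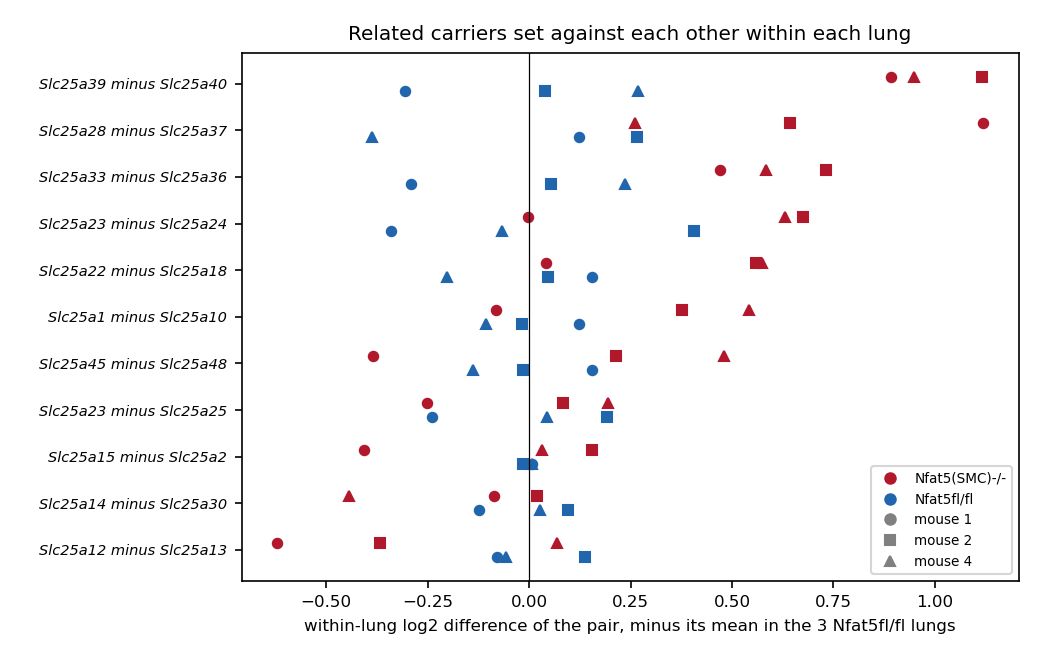
Within-lung log2 difference between the members of 11 pairs of related carriers, minus its mean in the 3 Nfat5fl/fl lungs (x axis), with Nfat5(SMC)-/- lungs in red above and Nfat5fl/fl lungs in blue below, and mice 1, 2 and 4 as circles, squares and triangles. The pair of Slc25a39 and Slc25a40, at the top, shows the largest gap between the groups, with a mean shift of 0.99.

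The genes of the family differ widely in genomic span, introns included, and the difference between the groups went with it. Span was taken from the RefSeq gene table (GRCm38.p6). The 23 members with a span at or under the members' median of 22 kb were 17 higher and 6 lower, with a median difference of 0.16 on the log2 scale, and the 23 longer members had 8 positive and 15 negative differences (median -0.10). All 6 members that were higher at an unadjusted p under 0.05 belonged to the shorter genes, and 4 of the 5 that were lower belonged to the longer ones. The array as a whole showed the same order: among probe sets above the median level, the median difference was 0.12 for 6351 genes with a span up to 22 kb and -0.14 for 6439 longer genes. The rank correlation of difference and span was -0.53 over the 46 members and -0.62 over the 32 members above the median level, against -0.42 over 12790 probe sets above that level, as a description of points that share the same 6 lungs. With each array corrected for span, the difference of Slc25a1 was 1.05 (adjusted p 0.0502 in limma), that of Slc25a10 was 0.79 (adjusted p 0.0558 in limma) and that of Slc25a40 was -0.57 (adjusted p 0.103 in limma). Neither RNA quality nor transcript length was measured here, and their part in this relation was not tested.

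**Figure D5:**
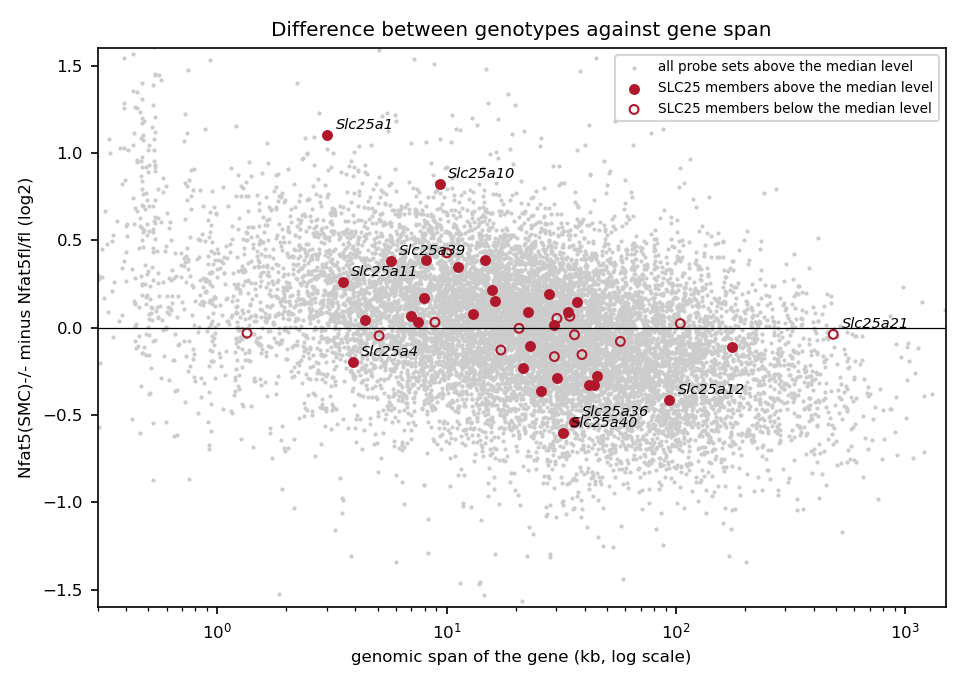
Difference between Nfat5(SMC)-/- and Nfat5fl/fl lungs (log2, y axis) against the genomic span of each gene (kb, log x axis) for 45 of the 46 SLC25 genes (red, open where the level is below the median) and for all probe sets above the median level (grey, 44 of them outside the drawn range of 1.6 on either side of 0). Short members such as Slc25a1 (3.01 kb) lie mostly above 0 and long members such as Slc25a40 (32.1 kb) mostly below, as the grey points do.

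The route by which carrier proteins enter mitochondria was examined last. Carriers are recognised by the outer membrane receptor TOM70, pass the TOM pore, are escorted by small TIM chaperones and are inserted by the TIM22 complex. Of 13 listed genes 8 were higher and 5 lower, none called, with a median of 0.03. Tomm40, the pore itself, measured 7.87, 8.06 and 7.72 in Nfat5(SMC)-/- lungs, against 7.30, 7.10 and 7.35 in Nfat5fl/fl lungs, without overlap (0.63, adjusted p 0.0653 in limma). Timm13, a small chaperone, had a difference of 0.67 (adjusted p 0.175 in limma), and Tomm70a, the receptor, of -0.28 (adjusted p 0.240 in limma). Of the 3 voltage-dependent anion channels, through which metabolites cross the outer membrane, 1 was higher and 2 lower. Vdac1 was the one above 0, with a difference of 0.33 (adjusted p 0.080 in limma).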

How the data were processed

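Gene expression was measured in 6 lung lobes, 3 per group and 1 array per mouse, and samples were grouped by the genotype in their labels. The deposited values are log2 levels. The authors regrouped the probes by Entrez gene (custom chip definition, version 22), summarised them by RMA, named without a version in the submitters' processing notes, and applied quantile normalisation. Because all arrays then share 1 distribution, a change common to the whole transcriptome is invisible, and the number of arrays limits the precision.

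Symbols came from the platform annotation, and from the RefSeq gene table (GRCm38.p6) where the platform gave none. 25269 of 25428 probe sets had 1 symbol and 159 none. Nfat5(SMC)-/- minus Nfat5fl/fl was tested with limma 3.58.1 (R 4.3.3; lmFit, eBayes, two-sided, no covariate, no filter on level), and p-values were adjusted by Benjamini-Hochberg over the 25428 probe sets (threshold 0.05). The fit was run on simulated data with independent normal noise of equal spread in both groups. That simulation holds no lung that stands apart, so it cannot judge calls that depend on 1 lung. The labels name separate mice, and the p-values measure the spread between them.

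The members and gene lists were chosen with earlier results of these data known, so no list was tested as a set. Values of each lung were given for members that passed the test, the 10 highest and 10 lowest differences among members with an unadjusted p under 0.05 and no overlap, Slc25a3, Slc25a4 and both members of each related pair. 1 member that the rule takes is counted with the family but not reported here singly. Of other lists, up to 4 genes with the smallest p were named. Slc25a29, Slc25a35, Slc25a44 and Slc25a46 are given by lung outside this rule and were chosen after their values were seen, as were Mpc1, Mpc2, Plin1, Cidec, Cfd, Tek, Cdh5, Kdr, Pecam1, Cldn5, Vwf, Zic1 and Dio2. Cidea, Cox8b and Cox7a1 were also chosen in that way.

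Alternatives were the methods' t-test (the methods name a one-way comparison, which is that test for 2 groups), a mean-dependent or robust prior, array weights, cyclic loess, a filter on low values (above the median of 4.96 in at least 3 arrays, 12924 probe sets), the mouse number as a block, a loess correction for gene span (smoothing parameter 0.3), the adipocyte or brown adipocyte marker mean as a covariate, and each lung left out. Nfat5(SMC)-/- mouse 1 and Nfat5fl/fl mouse 2 were also left out together ("both lungs" below). Nfat5fl/fl mouse 2 did not stand apart on the first principal component, at -20.8, against -21.6 and -20.1 in Nfat5fl/fl mice 1 and 4.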

Additional observations from a re-analysis of the deposited data

How the results depend on the processing

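Over all genes, 66 calls were higher and 142 lower. The methods' one-way comparison, a t-test for 2 groups, gave 0 and 0, the mean-dependent prior 2 and 0, array weights 1379 and 1884, cyclic loess 1 and 0, the span correction 22 and 21, the adipocyte or the brown adipocyte covariate 0 and 0, and leaving out both Nfat5(SMC)-/- mouse 1 and Nfat5fl/fl mouse 2 gave 548 and 904. With 1 lung left out the counts ranged from 0 to 353 and from 0 to 627, highest without Nfat5(SMC)-/- mouse 1. The 2 SLC25 members called higher were 0 under the t-test, the mean-dependent prior, cyclic loess, the span correction and both covariates, 1 under the robust prior, 5 under array weights and 0 to 3 with 1 lung left out. Members called lower were 0, but 2 with array weights, 1 without both lungs and 0 to 0 with 1 lung left out. Members higher at an unadjusted p under 0.05 were 6, against 13 with array weights, 3 with either covariate, 14 without both lungs and 5 to 11 with 1 lung left out. Members lower at that level were 5, against 2 in the t-test, 8 with the adipocyte and 0 with the brown adipocyte covariate, and 2 to 6 with 1 lung left out (2 without Nfat5fl/fl mouse 1). The members' median of 0.03 was -0.23 with the adipocyte covariate and -0.01 to 0.04 with 1 lung left out. Nfat5 differed by -1.29 with array weights (adjusted p 0.00887 in limma), -1.39 without both lungs and -1.25 to -0.94 with 1 lung left out, and passed the test without Nfat5(SMC)-/- mouse 1. It was -0.14 with the adipocyte covariate (adjusted p 0.901 in limma) and -0.41 with the brown adipocyte covariate (adjusted p 0.713 in limma). The marker means do not overlap between the groups for either covariate. Genotype and marker level therefore cannot be told apart in any result with these covariates. Over 17 alternatives Slc25a1 differed by 0.49 to 1.27 and Slc25a10 by 0.67 to 1.27, with adjusted p in limma of 0.0037 to 0.70 and 0.0086 to 0.713.

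Of 454 values of 27 members given by lung under the rule, 393 kept direction and side of the threshold, 25 lost the call, 3 gained it and 33 changed sign. Only Slc25a1 and Slc25a10 had a call to lose. Slc25a1 lost it in 12 of its 17 alternatives and Slc25a10 in 13 of 17. None of the sign changes was in a called member. Outside these 27, Slc25a44 gained the call in 3 settings (array weights, without Nfat5(SMC)-/- mouse 1, without both lungs) and Slc25a46, as lower, in 1 (without both lungs). With the adipocyte covariate, differences were -0.42 for Slc25a3, -0.54 for Slc25a33, -0.88 for Slc25a22, -0.89 for Slc25a23, -0.32 for Slc25a25, -0.67 for Slc25a30, -0.94 for Slc25a45 and 0.10 for Slc25a2. With the brown adipocyte covariate they were -0.066 for Slc25a3, 0.078 for Slc25a13, -0.049 for Slc25a33, -0.10 for Slc25a23, 0.15 for Slc25a24 and 0.062 for Slc25a2. The span correction gave -0.0079 for Slc25a3 and 0.020 for Slc25a13, array weights 0.054 for Slc25a15 and cyclic loess 0.0094 for Slc25a18. Without both lungs Slc25a18 was at 0.026 and Slc25a15 at 0.0020. With 1 lung left out, the sign changed in these ranges: -0.048 to 0.15 for Slc25a3, -0.21 to 0.015 for Slc25a13, -0.014 to 0.16 for Slc25a33, -0.051 to 0.024 for Slc25a18, -0.26 to 0.062 for Slc25a15, -0.082 to 0.017 for Slc25a2 and -0.12 to 0.097 for Slc25a30. The causes were not tested. The filter on low values could give no value for Slc25a2, Slc25a14, Slc25a18, Slc25a33 and Slc25a48.

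Mouse numbers are shared by the groups, but nothing in the labels says that they pair the mice. Deviations of same-numbered lungs correlated at 0.133, 0.411 and 0.0775 for mice 1, 2 and 4. The mean of 8 skeletal muscle markers was lowest in mouse 2 of each group, at 5.05 in Nfat5(SMC)-/- and 5.35 in Nfat5fl/fl lungs, and its part in these correlations was not tested. Nfat5(SMC)-/- mice 1 and 2 correlated best with their own number, and mouse 4 better with Nfat5fl/fl mouse 1 (0.145). With the mouse number as a replicate block, 0 genes were called higher and 0 lower, and 0 SLC25 members passed, with adjusted p in limma of 0.0977 for Slc25a1 and 0.0980 for Slc25a10.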
